A study of Mus musculus with 6 samples.

Results

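The genes described here are 40 imprinted genes of the mouse, chosen by name from common knowledge of imprinting, with earlier results of these arrays known. Of the 40, 38 had a probe set annotated with that gene symbol alone, and each was represented by its brightest probe set, while Slc22a3 and Zrsr1 were not analysed here. The mean signal of 30 of them passed the filter on low signal, out of 13223 named genes that passed it: 14 expressed from the maternal copy, 15 from the paternal copy, and Gnas, which makes transcripts of either origin.

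The study asked which genes respond when DNA methylation is removed, and whether reactivation of a silent reporter picks out responding cells. The cells were dermal fibroblasts at passage 4, grown out of the skin of mice aged 0 to 2 days that carried 1 copy of a GFP transgene on an X chromosome, driven by a chicken β-actin promoter with a CMV enhancer, from crosses of transgenic males of a mixed 129/ICR background with BL6 females. All groups began with a sort that kept cells in which GFP was off. In female cells that carried it, the transgene then lay on the inactive X chromosome. GFP-positive and GFP-negative cells had both received 4 μM of 5-aza-2'-deoxycytidine, an inhibitor of DNA methyltransferases, for 48 hours and then 24 hours of plain medium, and were separated by a further sort into cells that had switched GFP on and cells that had not. Their titles, source names, characteristics and protocols state this treatment, while their descriptions call them untreated in naming the dose, and they were taken as treated here. Control cells received no drug over the same times and no further sort, so the drug and that sort cannot be told apart in a comparison with control. Each group had 2 arrays, labelled biological replicates 1 and 2. The labels give mixed sex for control replicate 2 and female for the other 5 arrays, although every description names female mice.

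An imprinted gene is read mainly from the copy inherited from one parent. The choice is held by DNA methylation laid down in egg or sperm at imprinting control regions, copied at each cell division by DNMT1 with UHRF1, and protected in the early embryo by ZFP57 and TRIM28. Many imprinted genes act on growth: IGF2 is a growth factor, IGF2R clears it, and GRB10 damps insulin and IGF receptor signalling. An expression array reads the sum of both copies, so it does not show which copy an RNA came from. In a pool of cells it also cannot tell fewer cells that express a gene from less RNA per cell.

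The promoters of the members that passed the test below are shown because their CpG dinucleotides, the sites that carry DNA methylation, differ widely in number. Each line gives 250 bases before to 50 bases after an annotated start, from RefSeq on build GRCm38.p6, read 5′ to 3′ on the gene's own minus strand, with every CpG in capitals. Grb10 has 2 windows, and the most upstream of 3 windows of Slc38a4 is shown.
Peg3, chr7:6730370-6730669: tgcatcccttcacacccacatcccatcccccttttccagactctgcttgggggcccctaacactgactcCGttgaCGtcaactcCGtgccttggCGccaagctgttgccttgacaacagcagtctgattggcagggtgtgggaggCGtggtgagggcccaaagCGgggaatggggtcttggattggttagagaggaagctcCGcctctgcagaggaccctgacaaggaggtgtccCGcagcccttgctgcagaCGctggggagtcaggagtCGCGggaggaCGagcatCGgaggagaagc
Igf2r, chr17:12769657-12769956: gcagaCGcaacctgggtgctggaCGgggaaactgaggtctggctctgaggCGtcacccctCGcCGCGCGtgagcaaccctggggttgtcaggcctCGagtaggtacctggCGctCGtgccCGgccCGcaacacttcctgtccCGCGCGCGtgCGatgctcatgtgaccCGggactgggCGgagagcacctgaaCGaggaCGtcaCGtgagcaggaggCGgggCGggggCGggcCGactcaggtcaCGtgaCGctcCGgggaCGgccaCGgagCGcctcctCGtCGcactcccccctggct
Grb10, chr11:12037371-12037670: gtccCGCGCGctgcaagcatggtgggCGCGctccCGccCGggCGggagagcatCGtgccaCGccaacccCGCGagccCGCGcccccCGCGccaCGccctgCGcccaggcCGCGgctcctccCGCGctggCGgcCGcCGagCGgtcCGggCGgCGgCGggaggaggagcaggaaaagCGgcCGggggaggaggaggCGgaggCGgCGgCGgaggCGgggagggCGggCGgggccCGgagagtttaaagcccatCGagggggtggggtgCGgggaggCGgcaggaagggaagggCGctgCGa
Grb10, chr11:12027922-12028221: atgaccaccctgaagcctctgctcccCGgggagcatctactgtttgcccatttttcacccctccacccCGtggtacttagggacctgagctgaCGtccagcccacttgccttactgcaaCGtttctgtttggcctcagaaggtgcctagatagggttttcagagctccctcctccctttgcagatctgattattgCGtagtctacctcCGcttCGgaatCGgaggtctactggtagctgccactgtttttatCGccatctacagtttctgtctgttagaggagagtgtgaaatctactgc
Slc38a4, chr15:97055907-97056206: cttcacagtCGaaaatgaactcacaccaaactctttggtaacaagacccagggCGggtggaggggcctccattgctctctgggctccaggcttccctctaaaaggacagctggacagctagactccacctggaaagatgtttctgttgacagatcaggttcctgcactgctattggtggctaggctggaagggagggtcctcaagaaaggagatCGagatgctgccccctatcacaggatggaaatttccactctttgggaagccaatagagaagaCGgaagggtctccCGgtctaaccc

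Igf2r held 34 CpGs and the first Grb10 window 45, against 13 for Peg3, 9 for the second Grb10 window and 5 in each of the 3 windows of Slc38a4. The Peg3 window overlaps that of Usp29 (chr7:6730333-6730632, plus strand), which starts close by in the opposite direction. Over the 53 windows found for 36 members, some of which overlap, the median was 13 CpGs, against 7 over all 32841 windows of 27018 genes. At least 10 CpGs were present in 34 of the 53 (64.15%), against 43.48% of all windows. The hexamer TGCCGC, which ZFP57 binds when it is methylated, was found on either strand in 11 of 53 windows (20.75%), against 11.61% of all. The 11 include overlapping windows of Mest. This hexamer itself contains a CpG, and the shares were not adjusted for the higher number of CpGs in the windows of members. TGCCGC occurred once in the first Grb10 window and in none of the other 4 printed. The motif GCCATNTT, bound by YY1, was found on either strand in 3 of 53 windows (5.66%), against 6.05% of all, and may share end letters with TGCCGC. Cdkn1c, Peg10, Sgce and Impact had no window in the table used. A match describes the sequence only, and methylation was not measured.

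The brightest members on the arrays were Gnas (mean signal 20902 over the 6 arrays), Cd81 (14945) and Meg3 (10099). Signals are MAS5 intensities brought to a common trimmed mean of 500, and compare arrays for a given probe set, not genes with each other. The 8 members below the filter had mean signals of 64.4 (Phlda2), 63.7 (Asb4), 63.0 (Zim1), 59.2 (Usp29), 58.4 (Peg10), 34.1 (Ascl2), 33.5 (Mkrn3) and 29.3 (Snrpn), under the minimum of 67.7, and were not tested. Differences below are on the scale of log2(signal + 30.6), which understates the change of dim genes, and come from limma. Arrays that share a replicate number deviated together, so each p is given without and with that number as a block. Arrays with the same number are called an array set. Calls were made at a p adjusted over all 27022 probe sets of under 0.05.

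Without the block, 0 of 30 members were called in GFP-positive against control cells, where 0.122% of all probe sets were, and 6 of 30 had an unadjusted p under 0.05, against 8.58% of named genes. With the block, 5 of 30 (16.7%) were called, against 6.21% of all probe sets and 7.77% of named genes. Of these 4 were lower (Peg3, Igf2r, Grb10 and Sgce; 3.8% of named genes were called lower) and 1, Slc38a4, was higher (3.97%), and no other member passed in either fit. In GFP-negative against control cells 0 of 30 were called without the block (background 0.0296%), with 4 at an unadjusted p under 0.05 against 6.2% of named genes. With it, Peg3, Igf2r and Grb10 were called lower, 3 of 30 (10%), against 3.57% of all probe sets and 4.53% of named genes called in either direction, 2.1% lower and 2.43% higher. Both comparisons use the same control arrays. Members were chosen with earlier results of these arrays known, so their shares here and below, set beside those of named genes, are not a test. The calls with the block rest on 2 residual degrees of freedom and on a variance that follows the mean signal, and without that trend 0 members were called.

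Peg3, a paternally expressed zinc finger gene, stood lowest. Its signal was 669 and 574 in GFP-positive cells, 957.5 and 776 in GFP-negative cells, and 2087 and 2132 in control cells. All 4 treated arrays lay below both control arrays, and within each array set the GFP-positive array was the lowest. In GFP-positive against control cells the difference was -1.72 ± 0.24 (SE; adjusted p = 0.0702, or 0.000165 with the block), 3.29-fold lower on the offset scale. It was -1.60 in array set 1 and -1.84 in array set 2, and only 0.454% of named genes had a lower difference. For GFP-negative cells it was -1.26 ± 0.24 (adjusted p = 0.253, or 0.00178 with the block). The other 2 Peg3 probe sets that passed the filter were also called with the block, at -2.17 and -1.09 in GFP-positive against control cells, and 2 more were too dim to test.

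Igf2r, the maternally expressed receptor that carries IGF2 to the lysosome, had signals of 2180 and 2790 in GFP-positive cells, 3520 and 3043 in GFP-negative cells, and 5445 and 5100 in control cells. The 3 groups did not overlap. The difference was -1.09 ± 0.22 in GFP-positive against control cells (adjusted p = 0.187; with the block, 0.00214) and -0.68 ± 0.22 in GFP-negative against control cells (adjusted p = 0.694, or 0.0375 with the block). A second probe set of Igf2r differed by -0.50 in GFP-positive against control cells and was not called (adjusted p = 0.348 with the block), and the mean of the 2 probe sets was not called either (-0.79, adjusted p = 0.0587). For GFP-negative cells the call with the block was lost without GFP-negative replicate 2 (-0.51, adjusted p = 0.343) or control replicate 1 (-0.60, 0.0834).

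Grb10, the adaptor that restrains growth factor receptors and is maternally expressed outside the brain, had signals of 5740 and 5086 in GFP-positive cells, 6910 and 5410 in GFP-negative cells, and 9744 and 9074 in control cells. Both treated groups lay below control, while they overlapped each other. The difference was -0.80 ± 0.22 in GFP-positive against control cells (adjusted p = 0.368; with the block, 0.00393) and -0.62 ± 0.22 in GFP-negative against control cells (adjusted p = 0.763, or 0.0216 with the block). All 3 Grb10 probe sets were called lower with the block in GFP-positive against control cells, the other 2 at -1.28 and -1.41. The first call was lost, at a like difference, without GFP-positive replicate 1 (adjusted p = 0.052) or 2 (0.0578), and the second without GFP-negative replicate 1 (0.0585), GFP-negative replicate 2 (0.246) or control replicate 2 (0.0612).

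Sgce encodes ε-sarcoglycan, a membrane protein, and is paternally expressed. Its signal was 1713 and 1769 in GFP-positive cells, 1962 and 2365 in GFP-negative cells, and 2422 and 2698 in control cells, with no overlap between groups. The difference in GFP-positive against control cells was -0.55 ± 0.21 (adjusted p = 0.636, or 0.0464 with the block). Leaving out any 1 of the 6 arrays ended that call, with adjusted p between 0.0518 without GFP-negative replicate 1 and 0.357 without GFP-positive replicate 2. Against control, GFP-negative cells differed by -0.24 ± 0.21 (adjusted p = 1, or 0.445 with the block).

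Slc38a4, a paternally expressed amino acid transporter, ran the other way. Its signal was 391 and 700 in GFP-positive cells, 419 and 425 in GFP-negative cells, and 243 and 236 in control cells. All 4 treated arrays exceeded both control arrays, and GFP-positive replicate 2 was the highest. The difference was 1.04 ± 0.34 in GFP-positive against control cells (adjusted p = 0.492, or 0.0378 with the block). The call with the block was lost when GFP-positive replicate 2 was left out (0.64, adjusted p = 0.479) or when control replicate 2 was (0.82, 0.178). For GFP-negative cells the difference was 0.74 ± 0.34 (adjusted p = 1, or 0.167 with the block). The dimmer probe set of the gene differed by 0.20 in GFP-positive against control cells (adjusted p = 0.784 with the block).

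**Figure D1:**
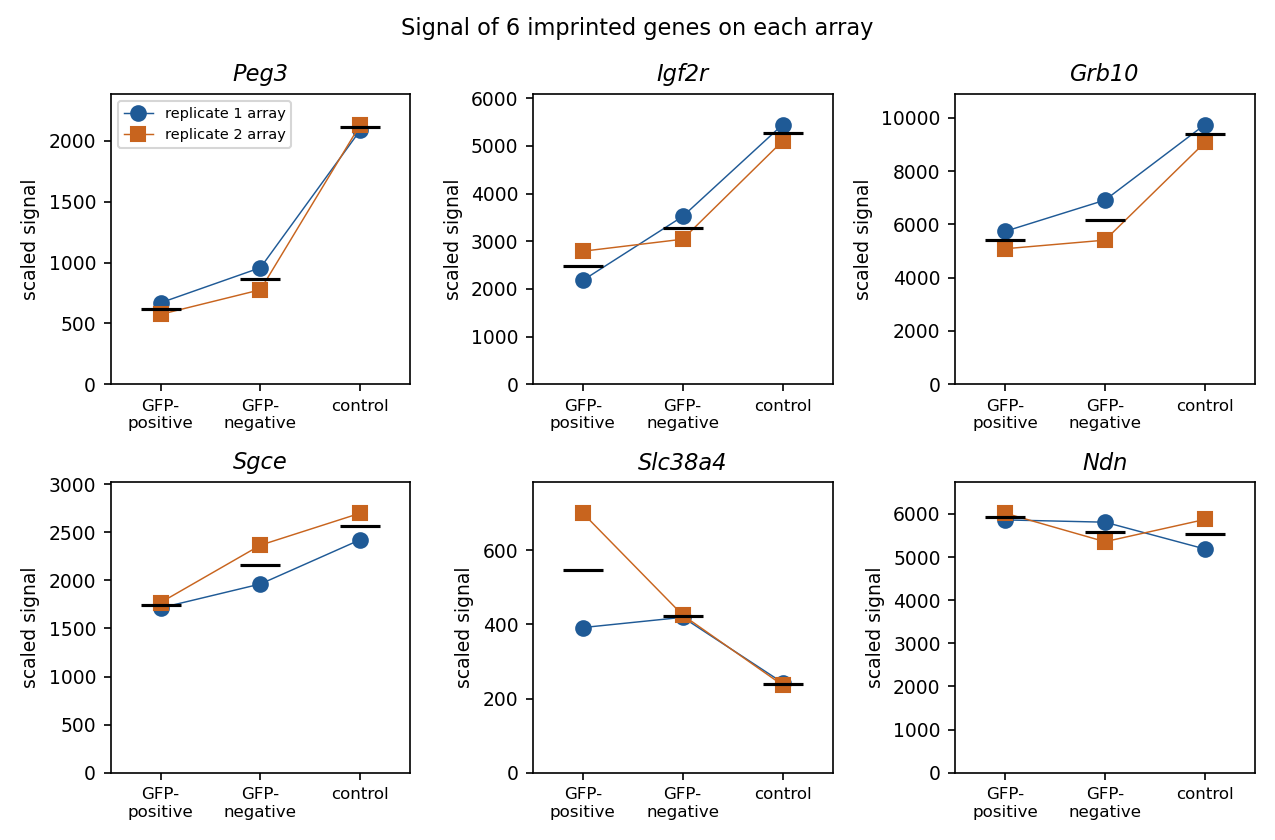
Scaled signal of 6 imprinted genes on each array; each point is 1 array, lines join the arrays of a set, black bars are group means, and each panel has its own linear axis from 0. Peg3, Igf2r, Grb10 and Sgce lie lower on all 4 treated arrays than on both control arrays, Slc38a4 lies higher, and Ndn lies between 5187 and 6016 on all 6.

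Both treated groups were also compared with each other. In GFP-positive against GFP-negative cells 0 of 30 members were called, without or with the block, as were 0% of all probe sets; at an unadjusted p under 0.05 stood 1 member (Rian) without the block and 6 with it, against 0.522% and 5.6% of named genes. Peg3 differed by -0.46, at -0.50 and -0.42 in the array sets, Igf2r by -0.40 at -0.68 and -0.12, and Sgce by -0.30 at -0.19 and -0.41 (adjusted p with the block 0.837, 0.837 and 0.856). Other probe sets did not all share these directions: a second one of Igf2r differed by 0.21, at -0.56 and 0.98 in the array sets, and the other 2 of Peg3 by -0.96 and 0.07. By their brightest probe sets, in both array sets, 9 of 30 members (30%) ran GFP-positive below GFP-negative below control, against 6.84% of named genes. They were Peg3, Igf2r, Grb10, Sgce, Gnas, Tssc4, Copg2, Nap1l5 and Impact. Not all other tested probe sets of Peg3, Igf2r, Grb10, Gnas and Impact kept this order. The other tested probe set of Impact held the reverse order in both sets. For Gnas the brightest probe set differed by only -0.001 between the treated groups in array set 1. Among brightest probe sets the reverse order in both sets was held by 1 member, Ppp1r9a, against 8.51% of named genes. Ppp1r9a is dim, and its other tested probe set did not hold that order.

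Among the 30 members 20 were lower in GFP-positive than in control cells, with a median of -0.14, and -0.25 and -0.27 in the array sets, where the median of all named genes was 0.04. The arrays did not overlap, with GFP-positive below control, for 9 of 30 members, against 15.7% of named genes, and with GFP-positive above control for 1, against 19.1%. For GFP-negative against control these counts were 8 (background 14.1%) and 2 (16.3%), and in GFP-positive against GFP-negative cells 9 (10.2%) and 2 (10.5%).

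The 14 maternally expressed members had a median difference of -0.21 in GFP-positive against control cells and -0.01 in GFP-negative against control cells. The 15 paternally expressed members had medians of -0.10 and -0.24. In GFP-positive against GFP-negative cells the medians were -0.20 for maternal and 0.02 for paternal members. Within array sets 1 and 2 the maternal medians were -0.14 and -0.34 in GFP-positive against control cells, -0.11 and -0.14 in GFP-negative against control cells, and -0.16 and -0.16 between the treated groups. The paternal medians were -0.26 and 0.04, -0.17 and -0.13, and -0.16 and 0.13 in the same comparisons, so that those for GFP-positive cells changed sign with the set. Each set had members on both sides of 0, and the paternal set holds both the lowest difference, Peg3, and a called higher one, Slc38a4. The 6 tested maternal members that are imprinted beyond single tissues (Igf2r, Grb10, Cdkn1c, Meg3, Rian and Mirg) were lower in GFP-positive than in GFP-negative cells in both array sets, with a median of -0.39, where 27.3% of named genes were lower in both sets, and 0 of the 6 were called. This holds for the brightest probe sets: over all tested probe sets the array sets agreed in sign for 1 of 2 of Igf2r, 1 of 3 of Grb10, 1 of 2 of Mirg and 7 of 11 of Meg3, and for all 4 of Rian and the 1 of Cdkn1c. Meg3, Rian and Mirg belong to the same cluster, Dlk1-Meg3, so the 6 are not 6 separate loci. The 8 maternal members imprinted in some tissues only had a median of -0.07 in GFP-positive against GFP-negative cells, with 3 lower in both array sets.

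**Figure D2:**
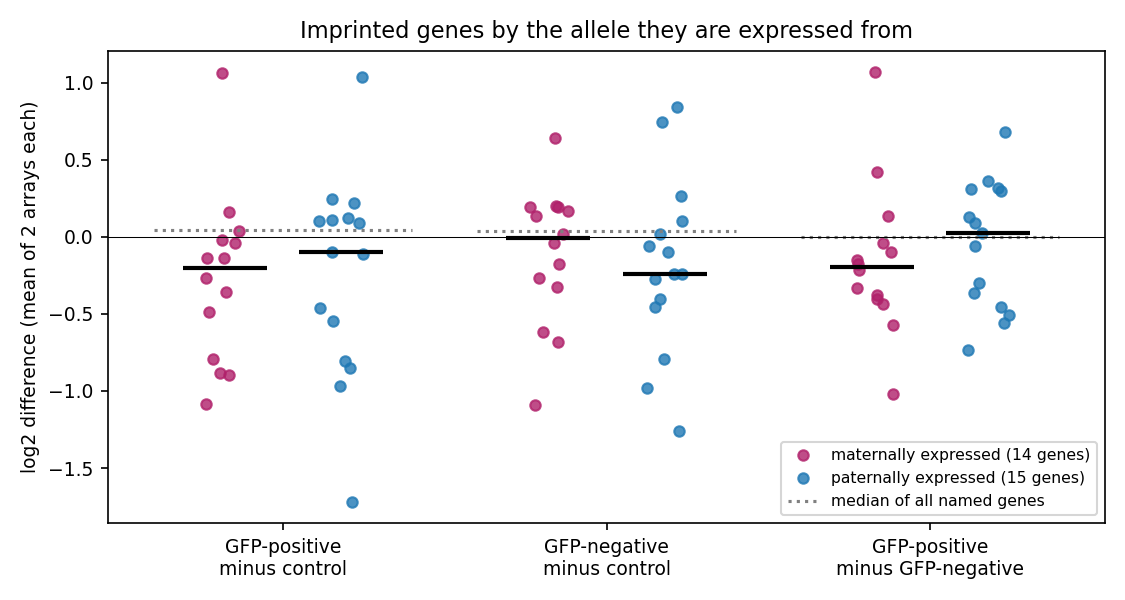
Log2 difference of 14 maternally and 15 paternally expressed genes (1 point per gene, Gnas left out) in the 3 comparisons; black bars are medians of each set and dotted lines the median of all named genes. Maternal and paternal members spread over both sides of 0 in each comparison, with medians of -0.21 and -0.10 in GFP-positive against control cells.

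Members of a cluster share an imprinting control region; differences between members of a cluster were not tested. In the Dlk1-Meg3 cluster Rian, a noncoding RNA of the maternal copy that hosts small nucleolar RNAs, had signals of 2961 and 1113 in GFP-positive cells, 3944 and 3505 in GFP-negative cells, and 3580 and 3182 in control cells. GFP-positive replicate 2 stood far below the rest, and no Rian difference was called (-0.88 in GFP-positive against control cells, adjusted p = 0.754, or 0.0648 with the block). Meg3 differed by -0.14 there, with 8 of its 11 probe sets below 0 and none called, and Mirg, a microRNA host, by -0.36. In the Kcnq1ot1 cluster the 5 tested members had a median of -0.14, between -0.48 for Tssc4 and 0.12 for the noncoding RNA Kcnq1ot1 itself, with Cdkn1c, a cell cycle inhibitor, at -0.27 and the tetraspanin gene Cd81 at -0.14. In the Snrpn cluster the 4 tested members lay between -0.11 (Peg12) and 0.11 (Ndn, a growth suppressor). In the Peg10 cluster, which also holds Sgce, Ppp1r9a differed by 1.06 (adjusted p = 0.919, or 0.172 with the block). It is dim (mean signal 113), and its GFP-positive and control arrays overlapped. Its other tested probe set differed by 0.09, at -0.29 and 0.46 in the array sets.

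Of the other members, Copg2, a subunit of the COPI vesicle coat, was just outside the call in GFP-positive against control cells. Its signal was 648 and 347 in GFP-positive cells, 708 and 734 in GFP-negative cells, and 881 and 947 in control cells, with a difference of -0.90 (adjusted p = 0.551, or 0.0515 with the block). Plagl1, a zinc finger transcription factor, differed by -0.97 (0.831, or 0.0769 with the block), Nap1l5 by -0.80 (0.925, or 0.286) and Impact by -0.46 (0.784, or 0.118). Plagl1 stood at -1.46 in array set 1 and -0.47 in array set 2, and its GFP-positive and control arrays overlapped. Other tested probe sets of Plagl1 differed by -0.77 and 0.15, and that of Impact by 0.30. Nnat, a small membrane protein, had signals of 214 and 283 in GFP-positive cells, 383 and 484 in GFP-negative cells, and 194 and 264 in control cells. Only the GFP-negative arrays stood apart, at 0.84 against control (adjusted p = 0.914, or 0.0904 with the block). Gnas, which encodes the stimulatory G protein subunit, differed by -0.14, H13 by 0.16, Blcap by 0.04 and Ube3a, a ubiquitin ligase, by -0.04 in GFP-positive against control cells.

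**Figure D3:**
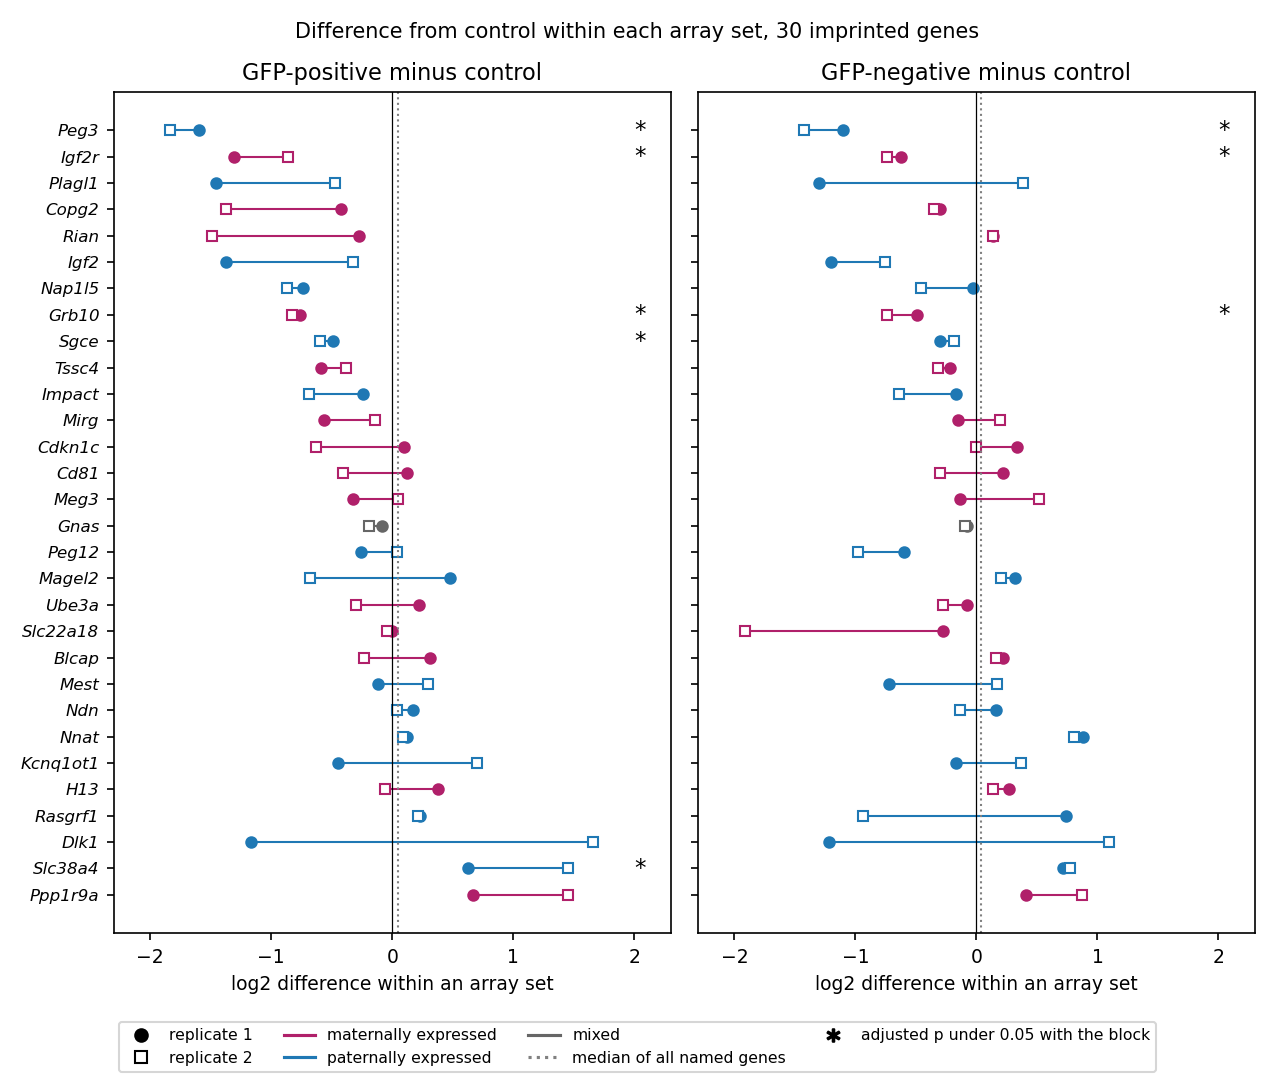
Log2 difference from control of the 30 tested imprinted genes within array set 1 (filled circles) and array set 2 (open squares), for GFP-positive (left) and GFP-negative (right) cells; an asterisk marks an adjusted p under 0.05 with the replicate block. The called genes have both points on the same side of 0, while Dlk1 lies at -1.17 and 1.66 on the left.

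Igf2 and Dlk1 differed more between the array sets than any other member. Igf2 had signals of 954 and 83.1 in GFP-positive cells, 1076 and 54.0 in GFP-negative cells, and 2521 and 112 in control cells. The first array of each group was 11.5, 19.9 and 22.5 times the second, and of the 13223 named genes 0% had a larger mean log2 difference between the sets than Igf2. Igf2 was lower in both treated groups than in control in each set, by -0.85 in GFP-positive and -0.98 in GFP-negative cells (adjusted p with the block 0.0963 and 0.0817). Dlk1, a membrane protein related to Notch ligands, had signals of 3697 and 1820 in GFP-positive cells, 3564 and 1223 in GFP-negative cells, and 8340 and 557 in control cells. Its difference in GFP-positive against control cells therefore turned with the set, at -1.17 in set 1 and 1.66 in set 2. Over the 30 members the difference between the sets had a median of 0.22 and an SD of 0.89 (log2), against 0.14 and 0.59 over all named genes. What else separates the sets was not tested.

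**Figure D4:**
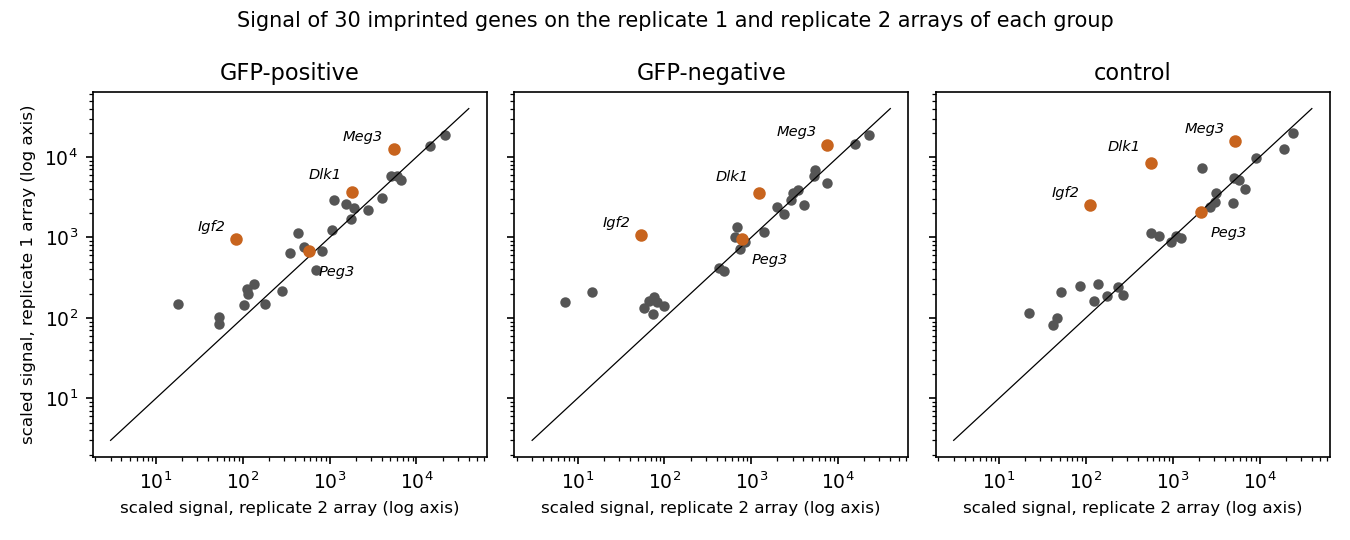
Signal of the 30 tested imprinted genes on the replicate 1 array (vertical, log axis) against the replicate 2 array (horizontal, log axis) of each group, with the line of equal signal. Igf2, Dlk1 and Meg3 lie above the line in all 3 groups, Igf2 at ratios of 11.5, 19.9 and 22.5, while Peg3 lies near it.

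None of the regulators of imprints passed the test. Of 23 listed, 20 passed the filter, with a median of 0.05 in GFP-positive against control cells. In any comparison 0 were called, without or with the block. With the block 7.77% of named genes were called in GFP-positive against control cells. In that comparison 2 regulators had an unadjusted p under 0.05 without the block, against 8.58% of named genes. Dnmt1, the maintenance methyltransferase that the drug traps, had signals of 1312 and 987 in GFP-positive cells, 1440 and 827 in GFP-negative cells, and 1040 and 645 in control cells. Its difference in GFP-positive against control cells was 0.46 (adjusted p = 0.966, or 0.154 with the block). Uhrf1 differed by 0.47, Trim28 by 0.05 and the dim Zfp57 by -0.77 (adjusted p with the block 0.207, 0.857 and 0.512).

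Of the 15 partners of the imprinted growth genes in insulin and IGF signalling, all passed the filter, with a median of -0.34 in GFP-positive against control cells, and 0 were called without the block. With it 4 were lower and 0 higher in GFP-positive against control cells, against 3.8% and 3.97% of named genes. Igf1r, the receptor for IGF1 and IGF2, had signals of 802 and 1052 in GFP-positive cells and 1582 and 1997 in control cells (-0.93, adjusted p = 0.427, or 0.0255 with the block). Irs1, which relays signals from that receptor, differed by -1.23 (0.176, or 0.00258 with the block). Among the IGF binding proteins Igfbp2 differed by -1.15 (0.272, or 0.00724) and Igfbp3 by -2.57 (0.781, or 0.00225). Irs1 and Igfbp3 were also called lower with the block in GFP-negative against control cells, at -1.06 and -2.09. There 2.1% of named genes were called lower.

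Among 36 further imprinted genes that are not members, 25 passed the filter, with a median of -0.01 in GFP-positive against control cells and 0 called without the block. With it 2 were lower and 2 higher in that comparison, against 3.8% and 3.97% of named genes. Dcn, the matrix proteoglycan decorin, had signals of 1496 and 203 in GFP-positive cells and 12516 and 2957 in control cells (-3.36, adjusted p = 0.532, or 6.69e-06 with the block). Tspan32 differed by -1.24 (0.606, or 0.0238). Tfpi2, a protease inhibitor, differed by 2.40 (0.222, or 0.00147) and Gatm, an enzyme of creatine synthesis, by 1.80 (0.457, or 0.0378). Whether Dcn, Tspan32, Tfpi2 and Gatm are imprinted in these fibroblasts was not tested. Of 35 genes that lie beside the clusters 27 passed the filter, with a median of 0.16 and 0 called without the block. With it 3 were lower (Lsp1 at -0.66, Mrpl23 at -0.56 and Slc38a2 at -0.51, adjusted p 0.0397, 0.0459 and 0.033) and 0 higher, against the same shares of named genes. Slc38a2, a neighbour of Slc38a4, thus went the opposite way to it.

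Markers of cell types moved beside these differences. All 10 fibroblast markers were detected, and their summed signal was 132019 to 136046 in GFP-positive cells, 133815 to 145556 in GFP-negative cells, and 177806 to 179898 in control cells. With the block 7 of the 10 were called lower in GFP-positive and 6 in GFP-negative cells, against control. Of named genes 3.8% and 2.1% were. Dcn, in the list above, is also 1 of these markers. The 7 markers of skeletal muscle and myoblasts summed to 13144 to 13184 in GFP-positive cells, 13322 to 16683 in GFP-negative cells, and 4479 to 9515 in control cells. This sum was mostly Acta1, and Myf5, Myog and Pax7 were below the filter. Against control, the 4 tested muscle markers were split: 2 higher and 2 lower in GFP-positive cells, 3 higher and 1 lower in GFP-negative cells. With the block 2 of the 4 were called higher in each treated group, where 3.97% and 2.43% of named genes were. Markers of keratinocytes, melanocytes, endothelial cells, leukocytes, adipocytes and Schwann cells summed to at most 1657 on any array, with Krt14, Dct, Pecam1, Ptprc and Adipoq among those below the filter. The part of these shifts in the differences of the imprinted genes was not tested.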

How the data were processed

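RNA of 6 samples of mouse dermal fibroblasts, 2 per group, was measured on Affymetrix arrays. Groups, dose and times follow the labels. The deposited values are 1 signal intensity per probe set on a linear scale, made with MAS5 per the submitters' processing notes, with settings not given in the sources used here. A 2% trimmed mean of this intensity was 500 except on 2 arrays, where it was 50.5 (GFP-positive replicate 2) and 62.0 (GFP-negative replicate 2). Every array was scaled to 500, with factors of 9.90 and 8.06 for those. The lower quartile was then 38.7 to 42.6 for arrays numbered 1 and 19.2 to 22.6 for those numbered 2.

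Of 45101 probe sets, 64 controls were left out; 34945 had 1 gene symbol in the platform annotation, 932 several (not named here) and 9160 none. Before log2, 30.6 was added to each signal (the middle value of the arrays' 25th percentiles), and probe sets with a mean at or above the 40th percentile (67.7) were kept, 27022 in all. Comparisons used limma 3.58.1 in R 4.3.3, with all 6 arrays in a fit, eBayes with a trend and 3 residual degrees of freedom; p-values were adjusted by Benjamini-Hochberg over every probe set kept. A simulation with planted differences checked only that the fit returned their size, not whether the calls on these arrays hold. Replicate numbers come from the labels; deviations of same-numbered arrays correlated at 0.556 (GFP-positive and GFP-negative), 0.506 (GFP-positive and control) and 0.513 (GFP-negative and control), so a fit with the number as a block was set beside it. The labels do not say whether replicates came from separate cultures or animals, so the p-values cover only how these samples spread, which may be technical; 2 arrays a group limit the precision.

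All 40 members may be named; signals per array are given for members called in either fit and for others chosen after their values were seen (Copg2, Rian, Nnat, Igf2 and Dlk1). Genes of the other lists were named if called, up to 4 per list and comparison, besides Dnmt1, Uhrf1, Trim28 and Zfp57. The members and lists were chosen with earlier results of these data known. Other alternatives were quantile normalization, median centring, 4 times the offset, no filter and a stricter one (60th percentile), no trend, the mean of a gene's probe sets, leaving out probe sets that may detect related transcripts, the 2 compared groups alone, and leaving out each array. Promoters came from RefSeq, build GRCm38.p6; the build behind the array annotation was not used.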

Additional observations from a re-analysis of the deposited data

Results flagged for a closer look

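Rian, the noncoding RNA of the Dlk1-Meg3 cluster, stood out because its 2 treated groups moved to opposite sides of control. GFP-positive cells differed from control by -0.27 in array set 1 and -1.49 in array set 2, and GFP-negative cells by 0.14 in each set. The difference between GFP-positive and GFP-negative cells was -1.02 (log2), lower in 2 of 2 array sets, and did not pass the test (limma, adjusted p = 1, or 0.725 with the replicate block). The difference was -0.41 in array set 1 and -1.63 in array set 2, where the signal of GFP-positive replicate 2 was 1113, against 2961 in GFP-positive replicate 1. With the block it was called when GFP-positive replicate 1, control replicate 1 or control replicate 2 was left out. The other 3 Rian probe sets differed by -0.66, -0.77 and -0.59 in GFP-positive against GFP-negative cells, all lower in both array sets and none called, and by -0.42, -0.35 and -0.03 in GFP-positive against control cells.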

How the results depend on the processing

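Without a replicate block, 0 members were called in GFP-positive against control cells under each alternative except no filter, which called 1 (Peg3), and 0 in the other comparisons. With the replicate block the count in GFP-positive against control cells was 5. It was 6 with median centring, 4 times the offset or a stricter filter, 4 with quantile normalization, 3 with no filter, with the mean of probe sets or without probe sets that may detect related transcripts, 0 with no trend, and 2 to 8 leaving out an array (7 without either GFP-negative array). In GFP-negative against control cells the count with the block was 3, also with quantile normalization, median centring, 4 times the offset, a stricter filter or the mean of probe sets. It was 2 with no filter or without related-transcript probe sets, 0 with no trend, and 2 to 5 leaving out an array. In GFP-positive against GFP-negative cells it was 0, or 0 to 1 leaving out an array: Rian was called without GFP-positive replicate 1, control replicate 1 or control replicate 2. Grb10 and Sgce had no tested probe set left without those that may detect related transcripts, so they could not be called there. The alternatives joined to the block were chosen after seeing the data. Peg3 was called in 14 of 15 fits with the block in both comparisons with control (all but no trend), between -1.86 and -1.58 in GFP-positive and -1.40 and -1.12 in GFP-negative cells. Igf2r was called in 13 of 15 fits with the block in GFP-positive and 10 of 15 in GFP-negative cells, against control. The difference of Slc38a4 in GFP-positive against GFP-negative cells was 0.29, but -0.10 without GFP-positive replicate 2 in either fit and 0.69 without GFP-positive replicate 1. With the block and no filter, 3 calls were lost: Igf2r in GFP-negative cells (adjusted p = 0.0633), and Slc38a4 (0.0741) and Sgce (0.0608) in GFP-positive cells, against control. Over all probe sets, the calls in GFP-positive against control cells were 33, or 1679 with the block, 0 and 8 with no trend, 467 to 1946 with the block leaving out an array and 0 to 35 without it. In GFP-negative against control cells they were 8, or 966 with the block, 16 with median centring, 3 with a stricter filter, and 0 in both fits with no trend. Calls over all probe sets thus moved with the alternative too, so changed counts of members do not describe the members alone. The causes of these changes were not tested. Members near the filter are dim, and for them a difference was not detectable unless large.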
